A study of Mus musculus with 8 samples.

Results

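The 6 mouse actin genes and 4 genes of the smooth muscle contractile apparatus were measured in the hearts of late embryos that carried the label WT or SIRT1 KO. The genes were the striated muscle actins Actc1 and Acta1, the smooth muscle actins Acta2 and Actg2, the cytoplasmic actins Actb and Actg1, and the contractile and regulatory genes Tagln, Cnn1, Smtn and Lmod1. They were taken by name, and every non-control probe whose accession belonged to 1 of these 10 genes was kept. This gave 15 of the 41174 non-control probes of the array, 10 for the actins and 5 for the other genes. Total RNA from whole hearts of 4 WT and 4 SIRT1 KO embryos of the C57BL/6 strain at E18.5, shortly before birth, was hybridized to Agilent mouse arrays with 1 color, and each array held 1 heart. The SIRT1 KO embryos lacked SIRT1, an NAD-dependent protein deacetylase, in the whole body through the germ line, the WT embryos carried no such deletion, and neither group was treated or fed anything but chow. Because the deletion was not limited to the heart, no cell type of the embryo was spared. P-values below measure the spread between these 8 hearts.

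Actins are the proteins of the thin filament, and each isoform is encoded by its own gene. The cardiac isoform Actc1 is the main actin of the mature heart, whereas the skeletal isoform Acta1 and the smooth muscle isoform Acta2 are also made by cardiomyocytes of the embryo and decline with maturation. The smooth muscle genes are at the same time markers of the vessel wall, and most of these promoters are known to be driven by serum response factor (SRF), which binds a sequence called the CArG box and works with the coactivators myocardin and the myocardin-related transcription factors.

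Promoter windows of 300 bases, from 250 bases before to 50 bases after a RefSeq transcript start in assembly GRCm38.p6, were at hand for 7 of the 10 genes: Actc1, Acta1, Acta2, Actg1, Cnn1, Smtn and Lmod1. The CArG box, which reads the same on both strands, was found in 3 of these 7 windows, those of Actc1, Acta1 and Actg1, against 1.63% of all 32851 windows. The 250 bases before the start of these 3 genes are shown because they hold the motif of the factor whose regulators are described below. Capitals mark the CArG box and its variants with 1 inner letter replaced by C or G, and all 3 windows lie on the minus strand, at chr2:114052876-114053125 for Actc1, chr8:123894776-123895025 for Acta1 and chr11:120348496-120348745 for Actg1.
Actc1: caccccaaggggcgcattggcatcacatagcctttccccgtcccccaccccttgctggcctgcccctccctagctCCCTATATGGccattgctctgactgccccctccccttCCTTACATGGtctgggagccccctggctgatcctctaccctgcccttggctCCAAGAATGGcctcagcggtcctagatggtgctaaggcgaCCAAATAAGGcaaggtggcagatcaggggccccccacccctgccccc
Acta1: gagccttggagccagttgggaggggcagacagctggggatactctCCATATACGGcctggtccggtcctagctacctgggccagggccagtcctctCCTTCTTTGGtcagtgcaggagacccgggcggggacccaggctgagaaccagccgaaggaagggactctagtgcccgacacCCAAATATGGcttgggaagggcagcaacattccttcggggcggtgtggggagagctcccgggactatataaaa
Actg1: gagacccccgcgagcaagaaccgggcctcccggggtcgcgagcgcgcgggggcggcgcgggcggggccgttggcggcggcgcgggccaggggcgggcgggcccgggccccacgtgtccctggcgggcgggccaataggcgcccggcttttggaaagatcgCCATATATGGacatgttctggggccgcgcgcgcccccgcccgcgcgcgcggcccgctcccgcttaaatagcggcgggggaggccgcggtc
The exact box of Actc1, CCAAATAAGG, began 47 bases before the start, that of Acta1, CCAAATATGG, 73 bases before it, and that of Actg1, CCATATATGG, 90 bases before it. Variants numbered 3 in the Actc1 window and 2 in the Acta1 window. The Acta2 window held no exact box and 2 variants, CCCTATATGG at 84 and CCTTGTTTGG at 34 bases before the start used there, and the Actc1 window held the former of these, CCCTATATGG, too. A variant was present in 8.50% of all windows. The windows of Cnn1, Smtn and Lmod1 held neither form, which says only that these letters are absent from these windows. A match describes the sequence and is not evidence of binding.

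All values are log2 of the processed signal minus the 75th percentile of the same array, so that a difference of 1 is a doubling and a value of 0 is that percentile's brightness. This percentile was 939 to 1033 intensity units in WT and 777 to 906 in SIRT1 KO hearts, 59.5% to 64.9% of the probes were well above background on an array, and no non-control spot was saturated. The test covered the 25616 probes that were well above background in 4 or more hearts. The 2 probes of Sirt1 itself did not fall together in the hearts labelled SIRT1 KO. The brighter probe was higher there, at 0.58 ± 0.14 against 0.04 ± 0.19 in WT (SD, n = 4 each, limma adjusted p = 0.0323, but 0.0865 with the analysis of variance of the methods), and the dimmer one was at -0.31 ± 0.22 against -0.20 ± 0.06 (limma adjusted p = 0.589). Where these probes lie relative to the deleted part of the gene was not analysed here, so they did not check the labels, and each direction given below rests on the labels. Each scan day held 1 genotype, so scan day, and any slide scanned within 1 day, cannot be told apart from genotype.

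All 15 probes were well above background on all 8 arrays and all were tested. None of them passed an adjusted p of 0.05 in limma, whereas 4.88% of all probes did. At an unadjusted p under 0.05 there were 3 of 15, those of Acta1, Actb and the dimmest of 4 Acta2 probes, against 21.5% of all probes. With the analysis of variance of the methods, 2 of 15 had an unadjusted p under 0.05, against 20.1% of all probes, and none passed after Benjamini-Hochberg adjustment, against 2.13%. Acta1 and Actb were also the only members whose genotypes did not overlap, both higher in SIRT1 KO hearts, a pattern seen in 8.63% of all probes, and no member was lower without overlap, as 5.11% of all probes were. The median log2 fold change over the 15 probes was 0.08, against 0.01 over all probes tested, and the members ranged from -0.19 to 0.39.

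The signs were divided by gene class. Of the 10 actin probes, 9 had a log2 fold change above 0, against 51.7% of all probes, and all 5 probes of Tagln, Cnn1, Smtn and Lmod1 had one below 0, against 48.3% of all probes. These counts depended on the processing. With arrays scaled to their median, where the median of all probes fell to -0.12, 4 of the 10 actin probes stayed above 0, and with no scaling, where that median was -0.21, 3 did. With array weights, 2 of the 5 other probes stayed below 0.

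**Figure D1:**
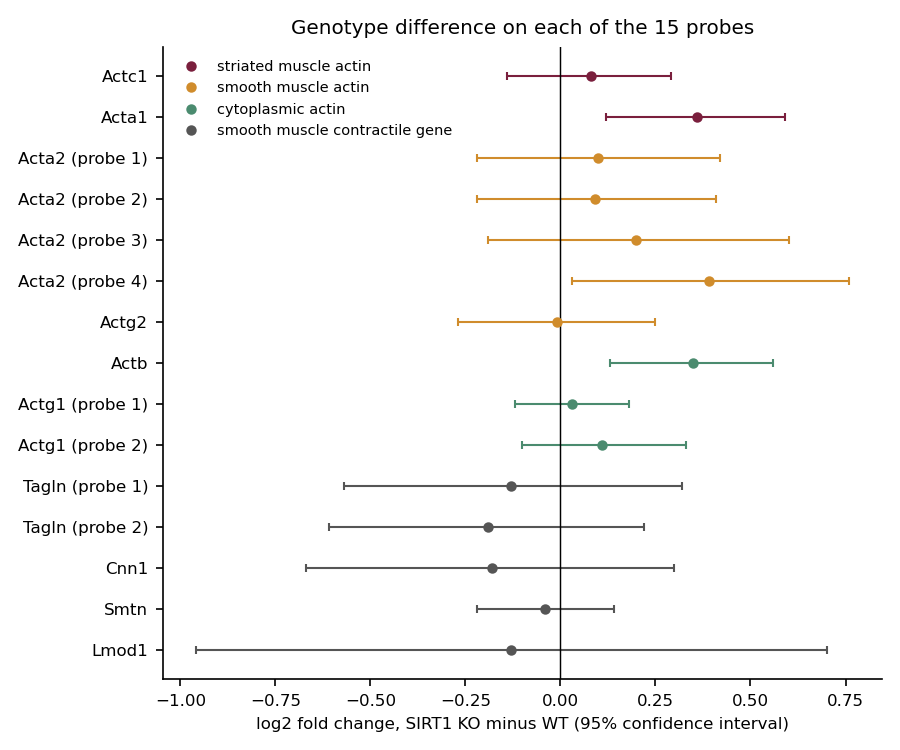
Log2 fold change of SIRT1 KO against WT hearts (horizontal axis) for each of the 15 probes (vertical axis), with the 95% confidence interval from limma and the gene class in color; the probes of a gene are numbered from the brightest. The intervals of Acta1, Actb and the dimmest Acta2 probe lie above 0, and all others cross it.

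Among the striated muscle actins, the cardiac isoform Actc1 differed little between genotypes. Its values were 7.88, 7.84, 7.80 and 8.06 in WT replicates 1 to 4 and 8.12, 7.89, 8.07 and 7.81 in SIRT1 KO replicates 1 to 4. The genotypes overlapped, with 2 SIRT1 KO hearts above every WT heart and 2 within the WT range, and the lowest and the highest heart differed by only 1.25-fold. With a log2 fold change of 0.08, a standard error of 0.10 and a limma adjusted p of 0.683, Actc1 did not pass, and the 95% confidence interval allowed a fold between 0.907 and 1.23. The sign turned with quantile normalization (-0.01), median scaling (-0.06) and no scaling (-0.14).

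Acta1, the skeletal isoform, separated the genotypes. It was at 2.50, 2.22, 2.35 and 2.53 in WT and at 2.70, 2.94, 2.80 and 2.59 in SIRT1 KO hearts, so that the lowest SIRT1 KO heart stood just above the highest WT heart. The means were 2.40 ± 0.14 and 2.76 ± 0.15 (SD, n = 4 each), a 1.28-fold higher level in SIRT1 KO hearts with a 95% confidence interval from 1.09 to 1.51. The exact permutation test gave p = 0.0286, the smallest that 4 against 4 hearts allows, and the limma adjusted p over all probes was 0.0912. Acta1 passed the threshold with array weights (limma adjusted p = 0.0377) and with normexp background correction (limma adjusted p = 0.0367), and its log2 fold change shrank from 0.36 to 0.22 with median scaling and to 0.14 with no scaling.

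Acta1 is also the actin of skeletal muscle, and markers of that tissue were therefore read in the same hearts. Of 12 such markers, 8 could be tested, and 3 of them passed in limma, against 4.88% of all probes, while 6 had an unadjusted p under 0.05, against 21.5%. Tnni2, the fast skeletal troponin I, was higher in SIRT1 KO hearts (log2 fold change 0.62, limma adjusted p = 0.0225), as was Myog, a myogenic transcription factor (0.52, limma adjusted p = 0.0291). The Myog probe was dim, with a mean intensity of 25.3 units, and was well above background on 7 of the 8 arrays. Neb, which encodes the giant thin filament protein nebulin, was lower (-0.81, limma adjusted p = 0.00622), and Tnnt3, a fast skeletal troponin T, was also below 0 at -0.36 (limma adjusted p = 0.318). With the analysis of variance of the methods only Neb of these kept its call, the adjusted p being 0.0740 for Tnni2 and 0.0794 for Myog. The summed linear signal of the 8 markers, relative to the array's 75th percentile, was 96.3 to 114 in WT and 108 to 131 in SIRT1 KO hearts, and Myh8, the perinatal myosin heavy chain, made up 94.2% to 96.0% of it (log2 fold change 0.22, limma adjusted p = 0.204). Without Myh8 the sum of the other 7 was 3.92 to 4.78 in WT and 5.63 to 7.36 in SIRT1 KO hearts, of which Tnni2 made up 80.8% to 89.2%, and the 6 markers left summed to 0.708 to 0.758 in WT and 0.719 to 0.905 in SIRT1 KO hearts, which overlapped. SIRT1 KO replicates 1, 2 and 3, the 3 highest hearts for Acta1, were also the highest for 3 of the 8 single markers, Myog, Myh8 and Tnni2. The defining factors Myod1, Myf5 and Myf6 were well above background on 1, 0 and 0 of the 8 arrays. The part of these values in the Acta1 difference was not tested.

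**Figure D2:**
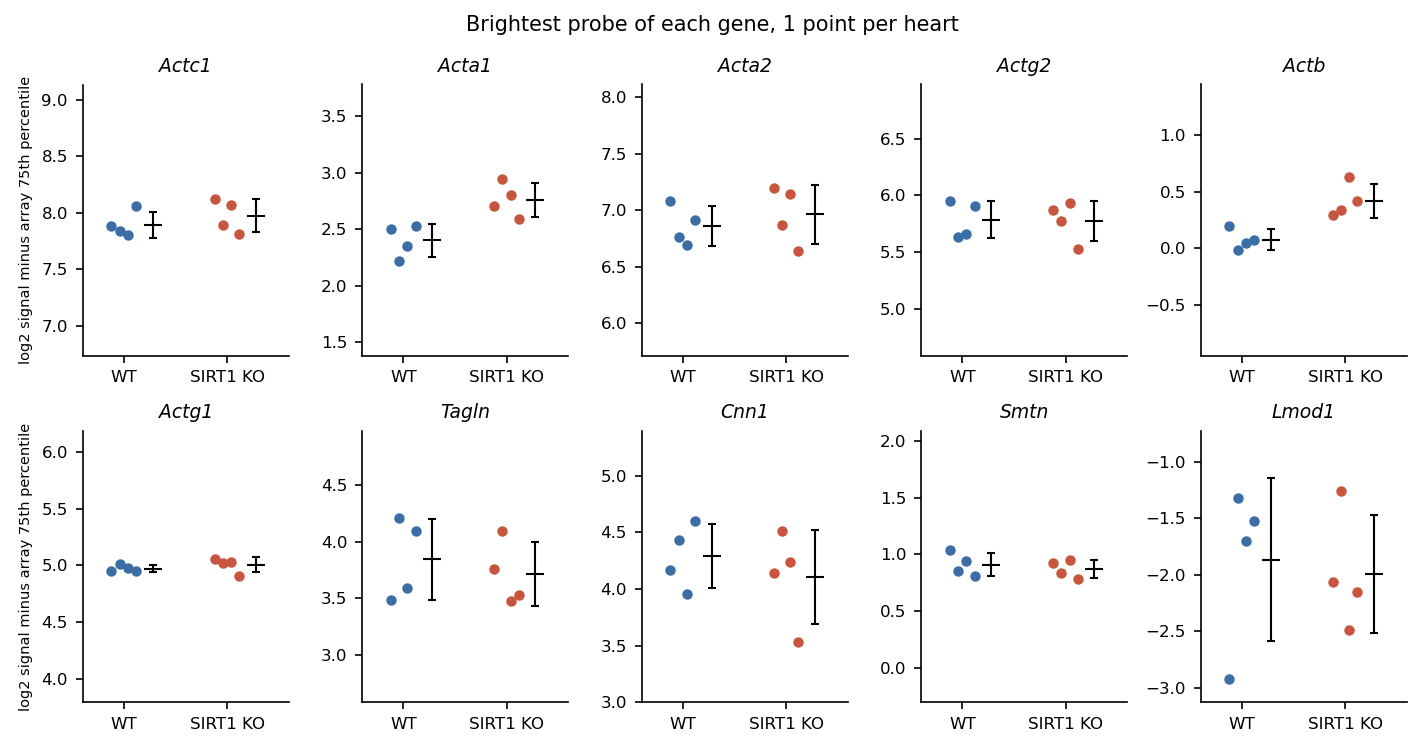
Log2 signal minus the 75th percentile of the array (vertical axis) for the brightest probe of each of the 10 genes, with 1 point per heart, WT in blue and SIRT1 KO in red, and the mean with its SD (n = 4) in black; every panel spans the same log2 range. The points of Acta1 and Actb do not overlap between genotypes, those of the other 8 genes do, and Lmod1 shows the widest spread.

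The smooth muscle actin Acta2 was covered by 4 probes, and the 3 brightest did not separate the genotypes. On the brightest, WT hearts were at 7.08, 6.76, 6.69 and 6.91 and SIRT1 KO hearts at 7.20, 6.87, 7.14 and 6.64. The lowest and the highest heart of the 8 were both SIRT1 KO. Their log2 fold changes were small, at 0.10 ± 0.14 on this probe (SE, limma adjusted p = 0.713), with a fold of 0.861 to 1.34 inside the 95% confidence interval, and the next 2 probes gave 0.09 and 0.20 (limma adjusted p = 0.739 and 0.535). Without scaling between arrays these 3 values turned to -0.12, -0.13 and -0.02.

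The dimmest Acta2 probe gave the largest log2 fold change of the 15, and was singled out after its values were seen. It was at -2.61, -3.05, -2.89 and -2.81 in WT and at -2.08, -2.56, -2.32 and -2.82 in SIRT1 KO hearts. Of the SIRT1 KO hearts, 3 exceeded every WT heart and replicate 4 lay within the WT range. For this probe the log2 fold change was 0.39 ± 0.16 (SE), the exact permutation p was 0.0857 and the limma adjusted p was 0.199. Within the same arrays, the log2 fold change of this probe exceeded that of the brightest Acta2 probe by 0.29 (exact permutation p = 0.0286, adjusted over the 5 pairs of probes of 1 gene 0.143), whereas the next 2 probes differed by -0.01 and 0.10 (exact permutation p = 0.886 and 0.229). With quantile normalization the dimmest and the brightest probe came closer, with log2 fold changes of 0.30 and 0.13. Over the 8 hearts the 3 dimmer probes followed the brightest one with r = 0.95, 0.92 and 0.85. What part of the transcript each probe reads was not analysed here.

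Actg2, the enteric smooth muscle actin, showed near-equal means in the genotypes. Its values were 5.95, 5.63, 5.66 and 5.91 in WT and 5.87, 5.77, 5.93 and 5.53 in SIRT1 KO hearts, and the group means were 5.79 ± 0.17 and 5.78 ± 0.17 (SD, n = 4 each). The SIRT1 KO values lay around those of WT, with 0 of 4 above every WT heart. The log2 fold change of -0.01 ± 0.11 (SE, limma adjusted p = 0.969) changed sign under quantile normalization, cyclic loess and array weights, and its 95% confidence interval ran from -0.27 to 0.25. The muscle actin proteins are close to identical, and how far a probe of 1 isoform also reads the RNA of another was not analysed here.

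Of the cytoplasmic actins, Actb was higher in every SIRT1 KO heart than in any WT heart. It was at 0.20, -0.02, 0.05 and 0.07 in WT and at 0.29, 0.34, 0.63 and 0.42 in SIRT1 KO hearts. Actb, which encodes β-actin, is widely used as a reference gene in expression assays. Its means were 0.08 ± 0.09 and 0.42 ± 0.15 (SD, n = 4 each), a 1.27-fold difference with a 95% confidence interval from 1.10 to 1.47. The exact permutation p was 0.0286, again the smallest possible, and the limma adjusted p was 0.0735. It passed with normexp background correction (limma adjusted p = 0.0372), came to 0.0508 in limma with array weights, and its log2 fold change of 0.35 became 0.21 with median scaling and 0.13 with no scaling.

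Actg1, the γ-isoform of the cytoplasmic actins, showed no such separation. Its brighter probe was the steadiest of all members, at 4.95, 5.01, 4.98 and 4.95 in WT and 5.06, 5.02, 5.03 and 4.91 in SIRT1 KO hearts. The pooled SD within genotypes was 0.05, and only 1.05% of the tested probes had a smaller one. Its log2 fold change was 0.03 ± 0.07 (SE, limma adjusted p = 0.821), with a fold of 0.921 to 1.13 in the 95% confidence interval, and the dimmer probe gave 0.11 ± 0.10 (SE, limma adjusted p = 0.532). Both turned negative with median scaling (-0.10 and -0.02) and with no scaling (-0.19 and -0.11). The 2 probes ran together only weakly over the 8 hearts, with r = 0.33.

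The genes of the smooth muscle contractile apparatus included the most variable members, and none separated the genotypes. Since whole hearts were measured, fewer cells of a type and less RNA per cell cannot be told apart for these genes. Tagln, which encodes the actin-binding protein transgelin (SM22α) and is an early marker of smooth muscle, was at 3.48, 4.21, 3.59 and 4.09 in WT and at 3.76, 4.09, 3.47 and 3.53 in SIRT1 KO hearts on its brighter probe. Each genotype held both high and low hearts. Between genotypes the log2 fold change was -0.13 ± 0.20 (SE, limma adjusted p = 0.744), and the dimmer probe, which followed the brighter one with r = 0.94, gave -0.19 ± 0.18 (SE, limma adjusted p = 0.577). With array weights the former value turned to 0.06.

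Cnn1, the calponin of differentiated smooth muscle, was at 4.17, 4.43, 3.96 and 4.60 in WT and at 4.14, 4.51, 4.24 and 3.53 in SIRT1 KO hearts. SIRT1 KO replicate 4 was the lowest heart and the other 3 lay inside the WT range. The log2 fold change of -0.18 ± 0.21 (SE, limma adjusted p = 0.657) became 0.01 without SIRT1 KO replicate 4 and 0.01 with array weights.

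Smtn, which encodes the actin-binding protein smoothelin, had a narrow range. WT hearts were at 1.04, 0.85, 0.94 and 0.81 and SIRT1 KO hearts at 0.92, 0.84, 0.95 and 0.78, and all but 1 of the SIRT1 KO values lay inside the WT range. This gave a log2 fold change of -0.04 ± 0.08 (SE, limma adjusted p = 0.813), with a fold of 0.859 to 1.10 in the 95% confidence interval. Lmod1, a leiomodin that nucleates actin filaments in smooth muscle, was the most variable member. It was at -2.92, -1.32, -1.70 and -1.52 in WT and at -2.06, -1.26, -2.49 and -2.15 in SIRT1 KO hearts. WT replicate 1 and SIRT1 KO replicate 2 stood at the ends, 3.15-fold apart. The log2 fold change of -0.13 ± 0.37 (SE, limma adjusted p = 0.872) could have hidden a fold from 0.514 to 1.63, and it became 0.05 without WT replicate 2, 0.04 without SIRT1 KO replicate 3 and 0.07 with array weights.

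Set against the 25616 probes tested, whose median pooled SD within genotypes was 0.15, the members ranged widely. Lmod1 had a pooled SD of 0.63, larger than that of 97.6% of the probes, followed by Cnn1 (0.36, 91.4%) and the probes of Tagln (0.32 and 0.30, 89.1% and 87.2%). The 4 Acta2 probes had 0.22 to 0.28, larger than in 74.3% to 85.1%. Actc1, Acta1, Actg2, Actb, Actg1 and Smtn lay between 0.05 and 0.17. Of these, Actc1, Acta1, Actg2, Actb and the dimmer Actg1 probe were nearer the middle, with an SD larger than in 35.5% to 59.3% of the probes.

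Tagln, Cnn1 and Lmod1 shared their highest hearts, and these were not the highest hearts of Acta2. The 3 highest hearts were WT replicates 2 and 4 and SIRT1 KO replicate 2 for Lmod1, Cnn1 and both Tagln probes. For the 3 brightest Acta2 probes they were WT replicate 1 and SIRT1 KO replicates 1 and 3. Smtn did not share the pattern of the other contractile genes, with WT replicates 1 and 3 and SIRT1 KO replicate 3 as its highest. WT replicate 1, 0.17 above the 8-heart mean for Acta2 on the brightest probe, was 0.99 below it for Lmod1. WT replicate 2, which was 0.43 above the mean for Tagln, was 0.15 below it for Acta2. These hearts were picked out after their values were seen, and no test was made of the pattern. The summed linear signal of 8 fibroblast markers was highest in the same 3 hearts, at 338 to 343, against 283 to 318 in the other 5, and among the single markers the same 3 hearts were highest for 3 of 8, the matrix genes Col1a2, Col3a1 and Dcn, but not for the other 5. That of 8 mural cell markers was highest in WT replicate 4 and SIRT1 KO replicates 2 and 4, but among the single markers only Mcam had these as its highest. The part of these markers in the pattern was not tested.

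**Figure D3:**
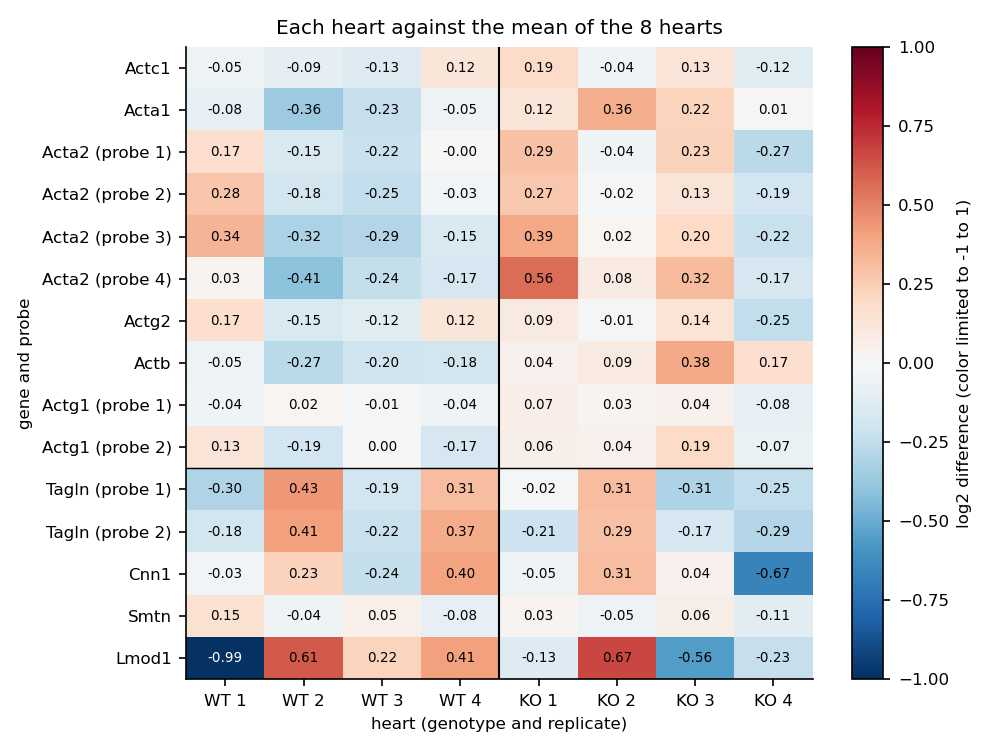
Log2 difference of each heart (columns, 4 WT and 4 SIRT1 KO, written KO) from the mean of the 8 hearts for each probe (rows), with the value printed and the color limited to -1 and 1; the horizontal line parts actins from the other genes. WT replicates 2 and 4 and SIRT1 KO replicate 2 are red for Tagln, Cnn1 and Lmod1, with 0.23 to 0.67, while none of them exceeds 0.02 on the first 3 Acta2 probes.

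Co-variation with Acta2 was measured over the 8 hearts for 5 genes, with both genotypes together, on the brightest probe of each. Actg2 followed Acta2 with r = 0.88 (exact permutation p = 0.00699, adjusted over the 5 relations 0.0349) and rho = 0.81 (exact permutation p = 0.0218, adjusted 0.109), and r was 0.91 without SIRT1 KO replicates 1 and 4, the hearts farthest from the Acta2 median. With quantile normalization r was 0.82 and no longer passed. The other relations did not pass. Tagln had r = -0.20 and rho = -0.24 (exact permutation p = 0.616 and 0.582), Cnn1 r = 0.35 and rho = 0.29 (exact permutation p = 0.406 and 0.501), Smtn r = 0.58 and rho = 0.52 (exact permutation p = 0.128 and 0.197), and Lmod1 r = -0.51 and rho = -0.33 (exact permutation p = 0.198 and 0.428). Adjusted over the 5 relations, these p-values were 0.616, 0.508, 0.320 and 0.330 for r and 0.582, 0.582, 0.493 and 0.582 for rho. Without the same 2 hearts, r was -0.51 for Tagln, 0.06 for Cnn1, 0.46 for Smtn and -0.77 for Lmod1.

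After the genotype means were subtracted, the genes most like Acta2 over the 8 hearts were Ess2 (r = 0.988), the small GTPase gene Mras (0.983), the endothelin receptor gene Ednra (0.982), Aifm2 (0.982) and the cardiac transcription factor gene Gata4 (0.981). These were the top 5 of 13560 genes ranked, and all points share the arrays and their scaling. On the same measure Actg2 ranked 119 (0.923), Actc1 826 (0.805), Smtn 1857 (0.687), Cnn1 4324 (0.457), Tagln 9670 (-0.092, on its dimmer probe) and Lmod1 12253 (-0.496).

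Differences between members were also compared within each array, where a scaling factor of the array cancels. None of the 10 pairs passed after adjustment. The difference of Acta1 over Actc1 was larger in SIRT1 KO hearts by 0.28 (exact permutation p = 0.0571, adjusted over the 10 pairs 0.285), and 3 of the 4 SIRT1 KO hearts exceeded every WT heart. That of Actg1 over Actb changed by -0.31 in SIRT1 KO hearts (exact permutation p = 0.0571, adjusted 0.285), with 3 of 4 below every WT heart. Actb over Actc1 was larger by 0.27 (exact permutation p = 0.0857, adjusted 0.286). The pairs of Tagln, Cnn1, Smtn and Lmod1 over Acta2 changed by -0.23, -0.29, -0.14 and -0.23, with WT SDs of 0.16 to 0.86 and exact permutation p-values of 0.200 to 0.686. With 1 heart left out they ran from -0.42 to -0.08 for Tagln, from -0.45 to -0.20 for Cnn1, from -0.22 to -0.07 for Smtn and from -0.65, without WT replicate 1, to -0.00, without SIRT1 KO replicate 3, for Lmod1. With normexp background correction they were -0.27, -0.17, -0.01 and -0.06, and with the mean of all probes of each gene -0.36, -0.38, -0.24 and -0.33. The pairs Acta2 over Actc1, Actg1 over Actc1 and Actg2 over Acta2 changed by 0.03, -0.05 and -0.11, and the first 2 of them changed sign under other settings. With the mean of all probes Acta2 over Actc1 came to 0.12 and Actg2 over Acta2 to -0.21.

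**Figure D4:**
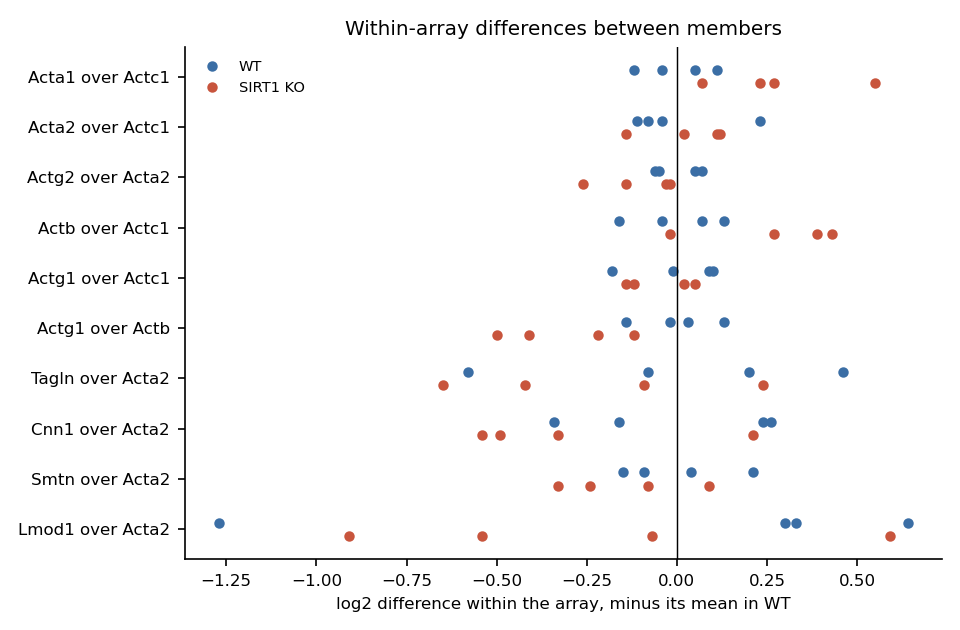
Log2 difference between the brightest probes of 2 genes in the same array, minus the mean of that difference in WT (horizontal axis), for 10 pairs (vertical axis), with 1 point per heart, WT in blue and SIRT1 KO in red. SIRT1 KO points reach 0.55 for Acta1 over Actc1 and -0.50 for Actg1 over Actb, and the 2 genotypes overlap in every pair.

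Other genes of the smooth muscle contractile and cytoskeletal machinery were read as a list of 34, of which 32 could be tested. Of these, 2 passed an adjusted p of 0.05 in limma, 1 in each direction, against 4.88% of all probes, 15 had a log2 fold change above 0 and 17 below, and the median was -0.04 against 0.01 for all probes. Flna, the actin cross-linker filamin A, was higher in SIRT1 KO hearts, at 5.82, 5.94, 5.74 and 5.67 against 5.49, 5.40, 5.46 and 5.45 in WT (log2 fold change 0.34, SE 0.08, limma adjusted p = 0.0406). Itga1, the collagen-binding integrin α1, was lower, at -0.38, -0.42, -0.27 and -0.30 against 0.28, -0.01, -0.12 and 0.21 (log2 fold change -0.43, SE 0.10, limma adjusted p = 0.0436). The genotypes did not overlap for Flna or Itga1. Both calls were lost without the filter on dim probes, with the analysis of variance of the methods and with the replicate block (limma adjusted p = 0.0788 for Flna and 0.0715 for Itga1), and with 1 heart left out Flna passed only without SIRT1 KO replicate 3 or 4 and Itga1 only without WT replicate 3 or SIRT1 KO replicate 3. Flna was lost with median scaling (log2 fold change 0.21) and with no scaling (0.12) too. Myh11, the myosin heavy chain of smooth muscle, was at -1.31 ± 0.13 in WT and -1.55 ± 0.14 in SIRT1 KO hearts (SD, n = 4 each, limma adjusted p = 0.207), and passed with median scaling and with no scaling.

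Of 22 regulators that act on SRF, myocardin or the smooth muscle program, 19 could be tested, and 1 passed in limma, against 4.88% of all probes. Klf4, a zinc finger factor known to repress smooth muscle genes, fell in SIRT1 KO hearts. It was at 3.23, 3.31, 3.24 and 3.22 in WT and at 2.94, 2.80, 2.84 and 2.89 in SIRT1 KO hearts, so that the genotypes stood apart by more than their own ranges. The log2 fold change was -0.38 with a standard error of 0.07 (limma adjusted p = 0.0136), and it passed in all 12 alternative fits and in all 8 that left out 1 heart. Klf5, a related factor, followed with -0.32 (limma adjusted p = 0.142), and the coactivator gene Mrtfb with -0.20 (limma adjusted p = 0.174). Srf itself was at 4.02 ± 0.17 in WT and 4.10 ± 0.22 in SIRT1 KO hearts (SD, n = 4 each, limma adjusted p = 0.756), Myocd at 1.93 ± 0.20 and 1.84 ± 0.10 (limma adjusted p = 0.696), and Mrtfa at 2.12 ± 0.12 and 2.22 ± 0.13 (limma adjusted p = 0.573). Over the 19 genes, 4 were above 0 and 15 below with a median of -0.08, and 7 passed with no scaling between arrays, where 24.8% of all probes did and the median of all probes was -0.21. Of Actc1, Acta1 and Actg1, whose promoters shown above carry the box that SRF binds, the genotypes were separated for Acta1 alone. No window was at hand for Actb, the other member whose genotypes were separated. The part of SRF in these values was not tested.

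**Figure D5:**
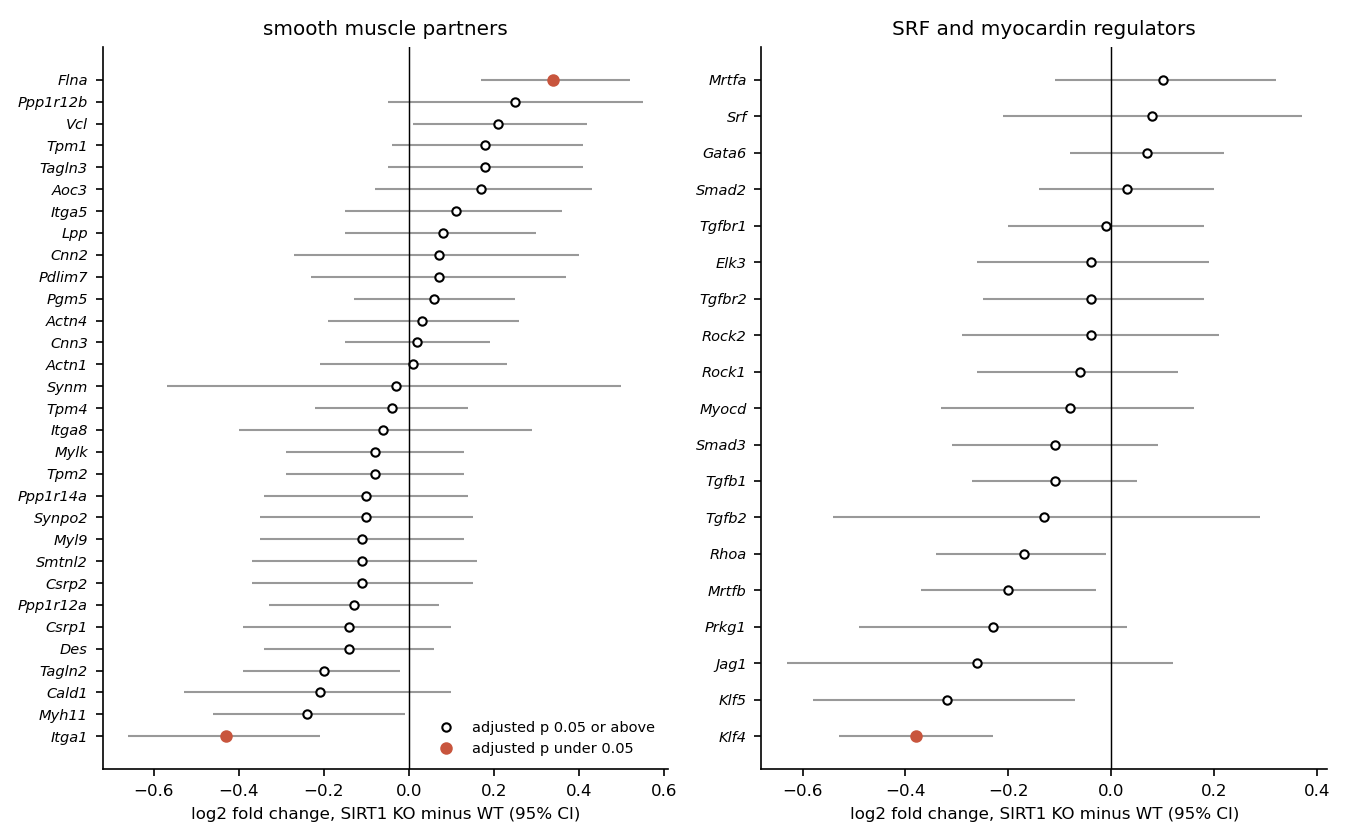
Log2 fold change of SIRT1 KO against WT hearts with its 95% confidence interval (horizontal axis) for 31 of the 32 tested smooth muscle partner genes (left) and the 19 tested regulators (right), sorted by value. Filled red points passed an adjusted p of 0.05 in limma: Flna and Itga1 on the left and Klf4 on the right.

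The label of the tissue was met by its markers. The cardiomyocyte genes Myh6 and Tnnt2 were at 7.73 ± 0.18 and 7.48 ± 0.11 in WT and at 7.65 ± 0.14 and 7.75 ± 0.18 in SIRT1 KO hearts (SD, n = 4 each), and none of 10 such markers passed in limma, with 1 at an unadjusted p under 0.05. None passed among 8 mural cell, 8 fibroblast, 8 endothelial, 8 macrophage, 5 erythroid, 6 epicardial and 6 liver markers tested either, of which 2, 1, 1, 2, 2, 3 and 0 had an unadjusted p under 0.05, against 21.5% of all probes. Their defining markers Pdgfrb, Col1a1, Pecam1, Csf1r, Hba-a1, Wt1 and Alb were well above background on all 8 arrays, with log2 fold changes of 0.20, 0.08, -0.12, 0.02, -0.23, -0.20 and 1.32. These did not stand for every gene of their lists. Of the mural cell markers 6 were above 0 and 2 below, and the 2 with an unadjusted p under 0.05, Rgs5 (-0.34) and Higd1b (-0.27), were those below. Of the macrophage markers 5 were above 0 and 3 below, and the 2 with such a p were Cd68 (0.64) and Mrc1 (-0.41). All 6 epicardial markers had a log2 fold change below 0, with summed linear signals of 17.3 to 20.8 in WT and 11.2 to 16.9 in SIRT1 KO hearts. Of the 5 erythroid markers, 4 were below 0, with sums of 220 to 261 in WT and 174 to 216 in SIRT1 KO hearts, but Hba-a1 made up 95.6% to 97.1% of this sum, and the other 4 summed to 6.29 to 8.51 in WT and 5.38 to 9.33 in SIRT1 KO hearts, which overlapped. Msln made up 48.5% to 64.4% of the epicardial sum, and the other 5 summed to 6.66 to 8.08 in WT and 5.72 to 6.07 in SIRT1 KO hearts. Of this remainder Aldh1a2 made up 44.4% to 55.2%. The 4 epicardial markers left summed to 3.37 to 3.99 in WT and 2.56 to 3.37 in SIRT1 KO hearts, so that the ranges met. The liver markers summed to 114 in SIRT1 KO replicate 1 and 59.7 in replicate 4, against 10.7 to 26.6 in the other 6 hearts. SIRT1 KO replicate 1 was the highest of the 8 hearts for Actc1, the brighter Actg1 probe and 3 of the 4 Acta2 probes, the brightest included. Replicate 4 was the lowest for the brightest Acta2 probe, the brighter Actg1 probe, the dimmer Tagln probe, Actg2, Cnn1 and Smtn. These 2 hearts stood at opposite ends on the brightest probes of Acta2 and Actg1, but not on their other probes. The part of liver RNA in these values was not tested. None of 6 lung markers was tested, and Sftpc was well above background on 3 arrays.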

How the data were processed

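From each of 8 embryonic hearts, 4 of either genotype, 500 ng of total RNA was labeled for 1 array. The authors deposited the intensity of every spot from Agilent Feature Extraction (version 12 in the submitters' processing notes, 12.0.0.7 per the file headers; the paper names an earlier one), as background-subtracted processed signal with no scaling between arrays, and a value table whose intensities equal it in 100% of the spots. Signals were log2-transformed, each array's 75th percentile over non-control spots was subtracted, and spots of a probe were averaged without outlier spots. Accessions were matched to RefSeq symbols of GRCm38.p6, which named 28223 of 41174 probes. Those well above background in 4 or more hearts were tested with limma 3.58.1 in R 4.3.3 (lmFit, eBayes, Benjamini-Hochberg at 0.05). For single values an exact permutation test, two-sided, was run in Python 3.11.15 (numpy 2.4.6, pandas 2.3.3, scipy 1.17.1), and plots were drawn with matplotlib 3.10.9. In simulated data with 200 of 25535 probes changed by 1 log2 unit, 85.5% were recovered and 6.56% of the calls were false; changes as small as those of the members were not simulated. Precision is limited by there being 4 arrays per genotype. The members and lists were chosen with earlier results of these data known. Named genes were all members with every probe, the partner and regulator genes past the threshold with the 3 smallest p-values, the defining marker of each cell type and the 5 genes most like Acta2. Myh11, Srf, Myocd, Mrtfa, Myh8, Tnnt3, Mcam, Msln, Col1a2, Col3a1, Dcn, Tnni2, Neb and the other myogenic factors were added after their values were seen, and 1 partner gene that the rule names is not reported here. A gene outside the members is given by its brightest tested probe. Alternatives were other scalings, filters, background correction, tests and each heart left out.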

Additional observations from a re-analysis of the deposited data

How the results depend on the processing

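Of the 15 member probes, 0 passed in any of the 8 fits that left out 1 heart, with the replicate block, or under any other scaling or filter; 1 passed with array weights and 2 with normexp background correction. The partner genes past the threshold numbered 5 with no scaling, 0 with no filter on dim probes, 0 with the analysis of variance of the methods and 0 with the replicate block, and 0 to 2 when 1 heart was left out. The regulators numbered 2 with quantile normalization, 3 with median scaling and 7 with no scaling. Signs turned for Actc1 with quantile normalization (-0.01), median scaling (-0.06) and no scaling (-0.14), and for Acta2 with median scaling (-0.03 and -0.04 on the 2 brightest probes) and no scaling (-0.12, -0.13 and -0.02 on the 3 brightest). They turned for Actg2 with quantile normalization (0.01), cyclic loess (0.01) and array weights (0.02), and for the Actg1 probes with median scaling (-0.10 and -0.02), no scaling (-0.19 and -0.11) and, on the brighter one, normexp (-0.03). With array weights they turned for Tagln (0.06), Cnn1 (0.01) and Lmod1 (0.07). The change of Acta2 over Actc1 was -0.11 with normexp, and that of Actg1 over Actc1 0.06 with quantile normalization. With 1 heart left out, log2 fold changes ran from -0.06 to 0.07 for Actg2, from -0.32 to 0.01 for Cnn1 and from -0.48 to 0.05 for Lmod1, and the change of Acta2 over Actc1 from -0.01 to 0.10. Without a change of sign, they ran from 0.03 to 0.13 for Actc1, from 0.02 to 0.21 on the brightest Acta2 probe and from -0.25 to -0.01 on the brighter Tagln probe. The cause of these changes was not tested.

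The replicate numbers were not taken as pairs: same-numbered hearts deviated together with r = 0.20, 0.21, 0.06 and 0.14, although each WT heart ran closest to its own number. The replicate block gave 1185 calls over all probes against 1250 and changed the calls of Flna and Itga1 and of no other member, partner or regulator. Normexp was run on the median spot signal, chosen after seeing the data, in place of the mean signal, which was not analysed here. A block for slide or scan day was not run, since each scan day held 1 genotype. Other scalings split the calls over all probes differently, with 81.4% higher in SIRT1 KO hearts at the 75th percentile, 63.9% with quantile normalization, 35.5% with median scaling and 10% with no scaling.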
